A study of Drosophila melanogaster with 30 samples.

Results

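The 10 genes described here set up or carry the positional information that a Drosophila mother lays down in her egg: bicoid (bcd), nanos (nos), oskar (osk), gurken (grk), exuperantia (exu), swallow (swa), staufen (stau), Bicaudal D (BicD), orb and cup. They were picked by name, as known genes of egg patterning and mRNA localization, after bcd had been seen to stand lower in ovaries of females with an added Ycongo chromosome. All 10 were found among 16868 counted genes, 9 by symbol and nos, listed as nanos in the annotation, by its gene identifier. The values behind that choice were the bcd counts of XXYcongo and XX ovaries, so every difference between ovary genotypes is given below as a description, and no test of it is read as evidence.

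In the ovary, nurse cells make mRNA and pass it into the oocyte, where motors on microtubules carry particular mRNAs to particular places. bcd mRNA collects at the anterior end, and its product, a homeodomain transcription factor, later forms the gradient that patterns head and thorax. osk mRNA collects at the posterior end, where Oskar protein assembles the pole plasm that holds nos mRNA, and the ligand encoded by grk signals from the oocyte to the follicle cells to set both body axes. The other 6 genes encode proteins that transport, anchor or silence these mRNAs: Exuperantia, Swallow and Staufen act on bcd mRNA, Staufen also on osk mRNA, BicD links cargo to the dynein motor, and Orb and Cup control translation of localized mRNAs.

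Poly(A) RNA of Drosophila melanogaster was sequenced from 30 libraries, 2 in each of 15 groups. Females with an added Ycongo (XXYcongo) or Yohio (XXYohio) were set against XX females without a Y chromosome in whole bodies, ovaries and the larval central nervous system (CNS). Males with an added Ycongo (XYYcongo) or Yohio (XYYohio) were set against XY males in whole bodies and testes. Bodies, ovaries and testes came from 2-day-old adults and the CNS from third-instar larvae. The names Ycongo and Yohio are those of the labels, which do not describe these chromosomes further. The labels write the X chromosomes of all groups with a caret that they do not explain, and do not say how many flies went into a library. The replicates are called biological with no word on separate cultures, and p-values here reflect only how far such libraries differed, which may be technical. Whole bodies contain the gonads, so the body and gonad groups overlap in tissue.

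Total counts per library ran from 6026258 to 15363636, and levels are CPM, counts normalised to library size and scaled with TMM factors over all 30 libraries. A library with 0 counts of a gene could still hold up to 0.171 to 0.463 CPM, the lowest and highest level that 3 counts stood for over the libraries, which covers counting error only. The tissues carried the markers of their labels: the summed level of 11 eggshell and follicle cell markers was 4950 to 11800 CPM in ovaries and 2090 to 5670 CPM in female bodies, against 1.18 to 5.22 CPM in male bodies, and that of 8 male germline markers was 4760 to 7780 CPM in testes, against 0.521 to 1.8 CPM in ovaries. The summed level of 7 nervous system markers was 1710 to 2160 CPM in the CNS. There, 5 fat body and yolk markers summed to 148.9 and 548.7 CPM in XXYcongo and 4621 and 492.5 CPM in XXYohio, against 813.3 and 164.5 CPM in XX. Whether these libraries hold RNA of other tissues was not tested. Mitochondrially encoded genes took 1.78% to 40.1% of the counts of a library and differed widely within some groups, so that their values stand beside the results they move with.

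The counts of some of the genes are not theirs alone. All 4306 exonic bases of cup are shared with CG34310 on the same strand, and the ratio of cup to CG34310 counts was 0.961 to 0.996 outside the CNS and 0.61 to 0.691 within it, so that values given for cup are those of both annotated genes. The strandedness of the libraries is not given in the sources used here, and grk shares 212 exonic bases with Akap200 on the other strand, which stood at 845 to 1407 CPM in the CNS. Reads of grk and Akap200 therefore cannot be told apart over these bases. Other antisense overlaps join exu with galla-1 (397 bases), nos with CG11779 (269 bases) and Nsun5 (104 bases), osk with asRNA:CR44020 (162 bases) and cup with cort (99 bases). On the same strand, osk shares 2251 of its 2869 exonic bases with lncRNA:osk, which is not among the counted genes. Reads of osk and lncRNA:osk cannot be told apart over these bases. In the Ensembl BDGP6.54 annotation, bcd lies on chromosome arm 3R from 6755842 to 6759466, nos on 3R from 19157238 to 19160202, osk on 3R from 8935126 to 8938395 and orb on 3R from 23260610 to 23280856. grk lies on 2L from 8431086 to 8433598, cup on 2L from 6663664 to 6674780, BicD on 2L from 17459605 to 17473215 and swa on X from 6363418 to 6365708, while exu and stau lie on 2R. The counted reads are those over their exons; no member lies on a Y chromosome.

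The choice rested on a difference between ovary genotypes and used no difference between tissues. The ovary means below still include the XX and XXYcongo ovaries behind it, and the 10 genes were picked for known roles in the egg. bcd, osk and swa were high where there were ovaries and close to 0 elsewhere. nos was high there too, lower in testes and male bodies, and close to 0 in the CNS. exu was highest in testes, and orb and cup were about as high in testes as in ovaries. stau and BicD were present in all 5 tissues, and grk was low in all of them. Each tissue was fitted as the mean of its 3 genotypes (6 libraries), in 1 edgeR model over all 30 libraries, and a gene was called at a Benjamini-Hochberg adjusted p below 0.05. The median log2 fold change of all 14384 genes tested was −0.83 for ovaries minus testes and −1.26 for female minus male bodies, against −0.01 to 0.00 in the other 3 comparisons, so that log2 fold changes of these 2 comparisons are also given relative to it where that changes the sign. In female minus male bodies and in testes minus male bodies, the value given for each of the 10 genes was the lowest over the alternative settings of scaling and filtering. The size of these differences therefore depends on the scaling. In bulk tissue, more cells of a type and more RNA per cell cannot be told apart. These differences hold between tissues that also differ in age and cell makeup, and the CNS was larval.

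**Figure D1:**
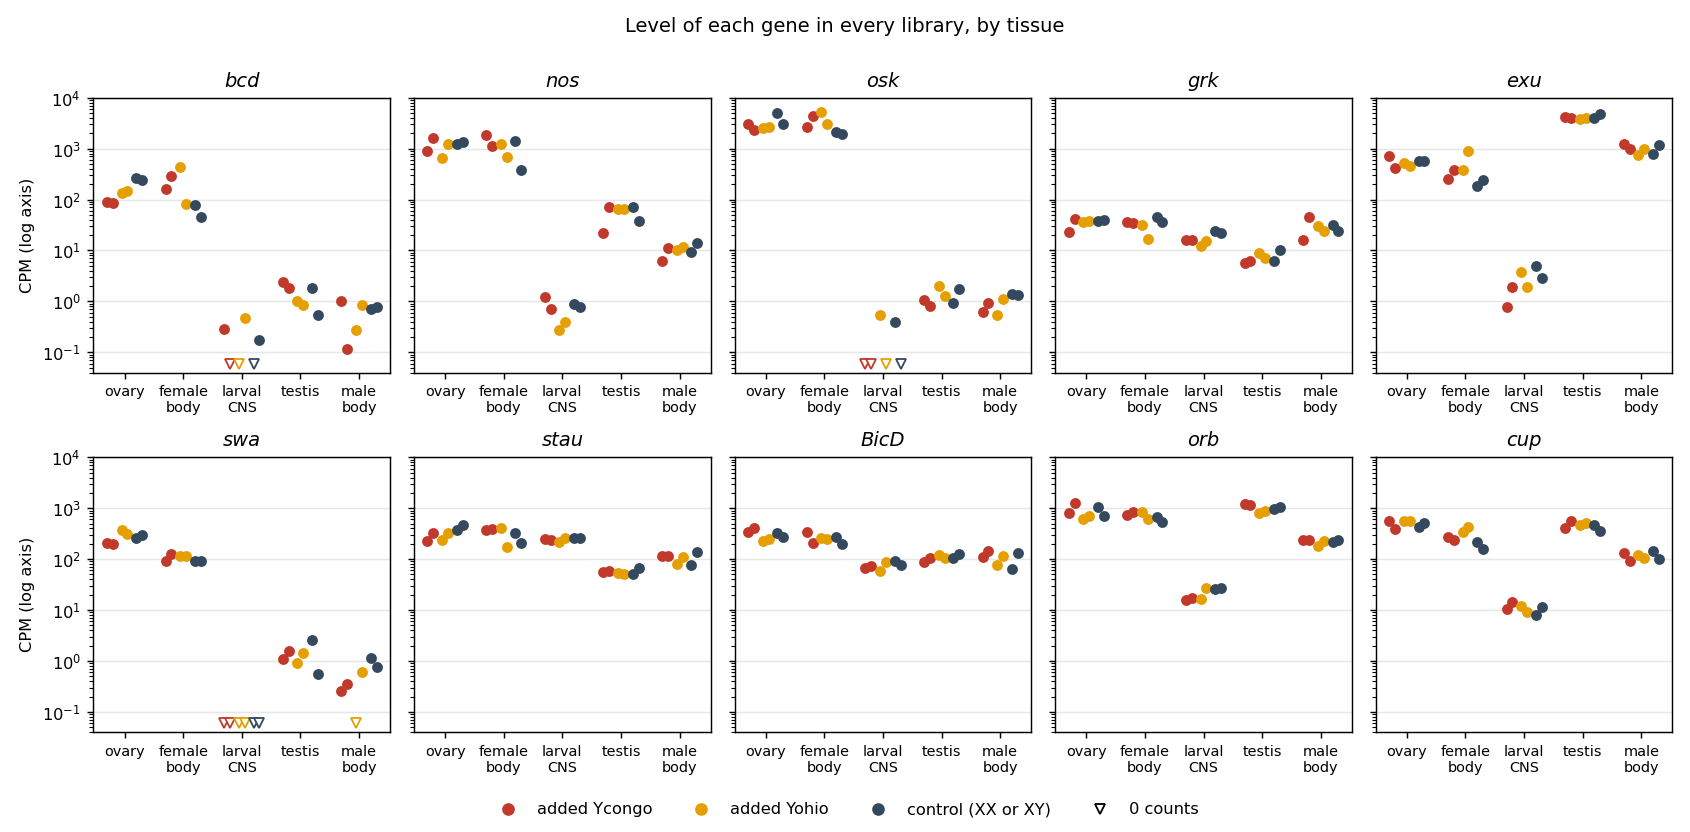
Level of each of the 10 genes in all 30 libraries, in CPM on a logarithmic axis, by tissue along the horizontal axis; each point is 1 library, colour gives the genotype, and open triangles mark libraries with 0 counts, drawn below the scale of measured values. bcd, osk and swa lie close to 0 outside ovaries and female bodies, nos is lower there with its testis libraries at 21.7 to 71.5 CPM, exu peaks in testes, and stau, BicD and grk are present in all 5 tissues.

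Among the localized determinants, osk was the most abundant. It ranged from 2315 to 4901 CPM in ovaries (median 2833) and from 1965 to 5122 CPM in female bodies (median 2849), against 0.801 to 2.04 CPM in testes and 0.541 to 1.41 CPM in male bodies. The CNS held 10 osk counts over 6 libraries, 4 of which had none. No ovary or female body library came near any library of the other tissues. The ovary level was 2210-fold that of testes (log2 fold change 11.11 ± 0.47, SE, edgeR adjusted p = 2.45e-14), and the female body level was 1800-fold that of male bodies (10.81 ± 0.47, adjusted p = 1.42e-13). Between ovaries and female bodies osk did not pass the test (0.24 ± 0.30, adjusted p = 0.573), and the sign of that difference depended on the scaling, from −0.16 to 0.36, as it did for bcd, nos and stau, which were not called either.

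nos, whose product represses translation of hunchback mRNA at the posterior, ranged from 653 to 1619 CPM in ovaries and from 373 to 1869 CPM in female bodies. Testes held 21.7 to 71.5 CPM, male bodies 6.20 to 14.0 CPM and the CNS 0.269 to 1.23 CPM. It was thus the only one of the 4 ovary-rich genes with all testis libraries above 20 CPM. The ovary level was 20.2-fold that of testes (log2 4.33 ± 0.38, adjusted p = 9.8e-10), and the testis level was 3.83-fold that of male bodies (1.94 ± 0.36, adjusted p = 5.63e-05).

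bcd, the anterior determinant, ranged from 87.0 to 267 CPM in ovaries (median 141) and from 45.4 to 436 CPM in female bodies (median 121). Testes held 0.551 to 2.45 CPM and male bodies 0.118 to 1.01 CPM, while the CNS held 11 counts in all, with 3 libraries at 0. bcd varied widely within ovaries and within female bodies, yet the lowest library of either was far above the highest testis library. The ovary level was 105-fold that of testes (log2 6.72 ± 0.49, adjusted p = 4.61e-11), and the female body level was 138-fold that of male bodies (7.11 ± 0.53, adjusted p = 1.14e-10).

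grk had the lowest median level of the determinants in ovaries and female bodies, but not in the CNS, testes or male bodies. It ranged from 23.5 to 41.8 CPM in ovaries, 16.7 to 45.7 CPM in female bodies, 12.5 to 24.5 CPM in the CNS, 5.77 to 10.0 CPM in testes and 16.1 to 45.1 CPM in male bodies. Ovary libraries overlapped those of both bodies and were all above those of testes. The ovary level was 4.71-fold that of testes (log2 2.24 ± 0.25, adjusted p = 5.29e-08) and 2.25-fold that of the CNS (1.17 ± 0.24, adjusted p = 0.000271), beside an Akap200 level of 99.3 to 198 CPM in ovaries and 131 to 171 CPM in testes. The part of Akap200 reads in the grk counts was not tested. The difference of female minus male bodies for grk was −0.63 ± 0.24 with an adjusted p of 0.0224, but its sign turned with the scaling (up to 0.31), and relative to the median of all genes it was 0.63.

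Of the genes whose proteins act on bcd mRNA, exu and swa were opposite between the gonads, with swa higher in ovaries and exu in testes. swa ranged from 198 to 374 CPM in ovaries and from 90.0 to 124 CPM in female bodies, against 0.551 to 2.62 CPM in testes and 0 to 1.13 CPM in male bodies. All 6 CNS libraries had 0 swa counts, which makes the ovary level at least 998-fold higher than the mean CNS level that 3 counts per library would give. swa had the largest excess of ovaries over female bodies of the 10 genes, 3.16-fold (log2 1.66 ± 0.25, adjusted p = 1.97e-05), with no overlap between the 2 tissues.

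exu ranged from 3835 to 4814 CPM in testes and from 762 to 1257 CPM in male bodies, against 416 to 727 CPM in ovaries, 185 to 891 CPM in female bodies and 0.759 to 5.05 CPM in the CNS. Every testis library was above every library of any other tissue. The ovary level of exu was 0.124 of the testis level (log2 fold change −3.02 ± 0.26, adjusted p = 6.56e-10), or −2.18 relative to the median of all genes, and the female body level was 0.199 of the male body level (−2.33 ± 0.25, adjusted p = 4.63e-08). Over the alternative settings of scaling and filtering the first difference ran from −3.47 to −2.46 and the second from −2.33 to −1.38. exu was also higher in testes than in male bodies (1.59 ± 0.25, adjusted p = 8.04e-06). Like swa, it was higher in ovaries than in the CNS, 233-fold (7.86 ± 0.33, adjusted p = 1.8e-14). It is known as background that exu makes separate transcripts in the male and female germline, which counts per gene do not separate.

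stau and BicD, which act in RNA transport in neurons or neuroblasts as well as in oocytes, had counts in every tissue. stau ranged from 226 to 458 CPM in ovaries and 219 to 264 CPM in the CNS, against 50.8 to 65.7 CPM in testes. Ovaries and CNS overlapped for stau and the difference did not pass the test (log2 0.48 ± 0.21, adjusted p = 0.0622), while the ovary level was 5.47-fold that of testes (2.45 ± 0.23, adjusted p = 1.78e-09). stau was lower in testes than in male bodies (−1.39 ± 0.22, adjusted p = 9.34e-06), but only by −0.50 at the other end of the alternative settings of scaling and filtering. BicD ranged from 225 to 402 CPM in ovaries, 86.9 to 126 CPM in testes and 59.7 to 91.0 CPM in the CNS. Its ovary level was 2.62-fold that of testes (1.39 ± 0.20, adjusted p = 1.69e-06) and 4.23-fold that of the CNS (2.08 ± 0.21, adjusted p = 1.2e-08).

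The translational regulators orb, a CPEB-type RNA-binding protein, and cup, which binds eIF4E and represses osk translation, were high in both gonads. orb ranged from 618 to 1240 CPM in ovaries and 786 to 1202 CPM in testes, and cup from 391.5 to 571.7 CPM in ovaries and 352 to 550 CPM in testes. Ovaries and testes overlapped for both genes. Neither passed the test between the gonads under TMM scaling, with log2 fold changes of −0.32 ± 0.18 for orb (adjusted p = 0.105) and 0.05 ± 0.18 for cup (adjusted p = 0.817), and the sign turned with the scaling for both, from −0.79 to 0.21 for orb and from −0.41 to 0.60 for cup. Both were called lower in ovaries under RLE scaling (adjusted p = 0.00032 for orb and 0.0378 for cup). Relative to the median of all genes, the orb difference was 0.51. Both were higher in testes than in male bodies, by 1.71 ± 0.18 for orb (adjusted p = 6.28e-08) and 1.52 ± 0.18 for cup (adjusted p = 2.88e-07). In the CNS orb stood at 16.0 to 26.9 CPM and cup at 7.87 to 14.1 CPM.

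Over the 10 genes, the test called 7 higher and 1 lower in ovaries than in testes, where 29.6% of all genes were called higher and 49.5% lower (79.2% in all). In ovaries against the CNS it called 9 higher and 0 lower, beside 27.9% and 29.0% of all genes (56.9% in all), and stau was the gene not called. Among the 9 are swa, with 0 counts in the CNS, and bcd, nos and osk, with too few for a test within it. These passed the count filter only through other tissues where they are high, which fixed their direction beforehand. The 9 therefore cannot be read against the share of all genes. In ovaries against female bodies 5 were called higher (swa, cup, exu, orb and BicD) and 0 lower, beside 29.2% and 26.4% of all genes (55.6% in all). Female bodies against male bodies gave 7 higher and 2 lower (exu and grk), beside 13.6% and 61.8% of all genes (75.5% in all). Among the 7 are bcd and swa, which had too few counts for a test within male bodies and passed the filter through other tissues. Testes against male bodies gave 5 higher (orb, cup, exu, nos and swa) and 2 lower (grk and stau), beside 36.7% and 38.5% (75.2% in all). The same limit holds for swa here. The count in ovaries against female bodies depended on the scaling and was 2 (swa and cup) under RLE scaling. For exu the difference of ovaries minus female bodies was 0.91 ± 0.24 (adjusted p = 0.00306), but −0.18 when fitted on the Yohio groups alone.

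**Figure D2:**
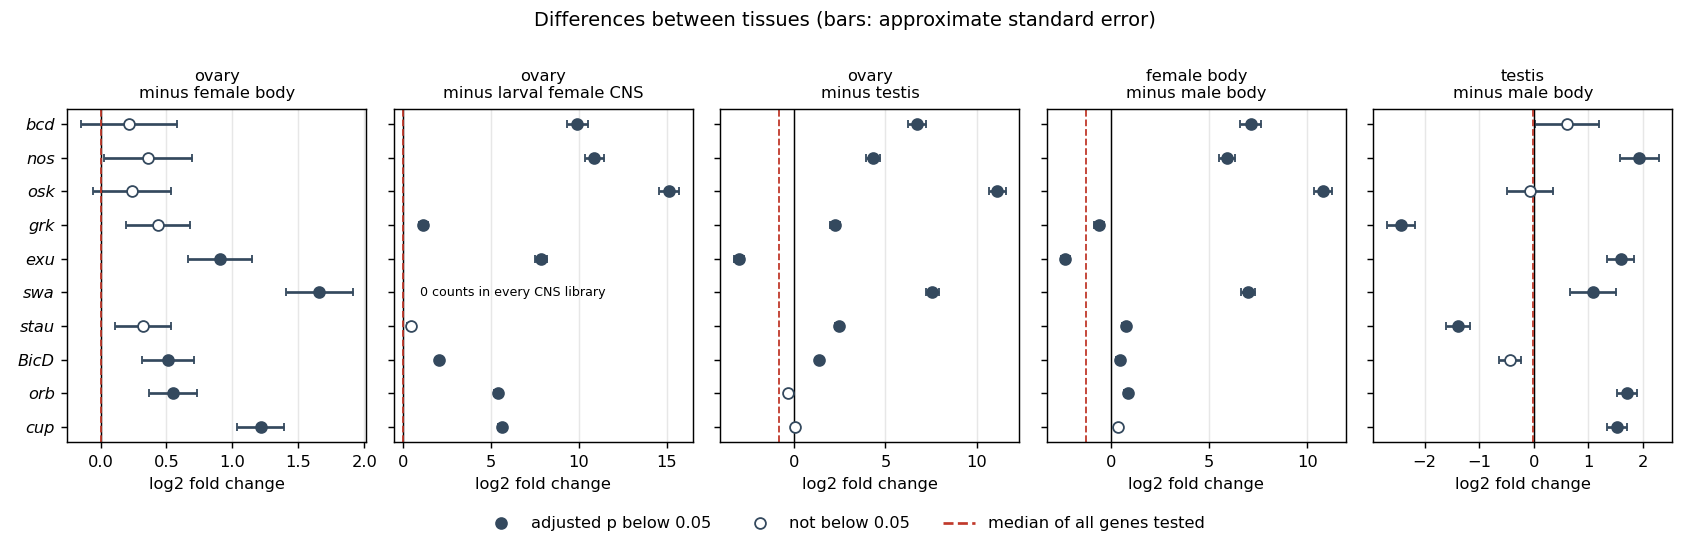
Log2 fold change of each gene in 5 comparisons of tissues, with horizontal bars for the approximate standard error; filled points have an adjusted p below 0.05, the solid line marks 0 and the dashed line the median of all 14384 genes tested. In ovaries minus testes, exu is the gene furthest to the testis side and osk, swa, bcd and nos lie furthest to the ovary side. swa is drawn without a point against the CNS, where all 6 libraries had 0 counts and its fitted value depends on the prior count.

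Levels of different genes can be compared only per length. Per kilobase of exon, the median ovary level was 988 CPM for osk, 518 for nos, 163 for exu, 138 for swa, 124 for cup, 78.1 for orb, 60.7 for stau, 55.6 for bcd, 54.1 for BicD and 21.8 for grk. The order in testes was led by exu at 1214 CPM per kilobase, with cup at 108 and orb at 107 next. In the CNS stau led at 47.6, followed by BicD at 13.6 and grk at 9.36 CPM per kilobase. Among the ovary levels per kilobase, library ranges overlapped between all neighbours in the order from exu down to BicD. Only osk, nos and grk lay apart from every other gene. The place of bcd depended on genotype. Its mean was 99.4 CPM per kilobase in XX ovaries, beside 92.0 for orb and 77.6 for stau. In XXYcongo ovaries it was 34.6, beside 106 for orb, 51.9 for stau and 67.6 for BicD.

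The following paragraphs turn to the added Y chromosomes, first in the ovary, where the genes were chosen. bcd stood at 88.6 and 87.0 CPM in XXYcongo ovaries and 136 and 146 CPM in XXYohio ovaries, against 267 and 237 CPM in XX ovaries. The 3 genotypes did not overlap, with XXYcongo lowest and XX highest. Behind these levels were 850 to 2894 counts per library. The fitted log2 fold change was −1.54 ± 0.26 (SE) for XXYcongo and −0.86 ± 0.26 for XXYohio, which share the XX ovaries, and the authors' deposited table has −1.30 and −0.76. bcd also stood lower relative to the other 9 genes, at 1.31% and 1.25% of their summed counts in XXYcongo ovaries and 2.37% and 2.23% in XXYohio ovaries, against 2.92% and 3.30% in XX ovaries. Mitochondrially encoded genes took 1.81% and 4.17% of the counts of XXYcongo ovaries and 4.82% and 6.61% of XXYohio ovaries, against 12.8% and 8.18% of XX ovaries, an order of genotypes like that of bcd. With those genes left out, the log2 fold changes of bcd were −1.55 and −0.88. The eggshell markers summed to 11770 and 4953 CPM in XXYcongo ovaries and 9893 and 7609 CPM in XXYohio ovaries, against 5190 and 6678 CPM in XX ovaries. The 5 female germline markers summed to 1725 and 1930 CPM in XXYcongo ovaries and 1826 and 1900 CPM in XXYohio ovaries, against 2064 and 2174 CPM in XX ovaries. The part of the mitochondrial share and of the cell makeup in the bcd difference was not tested.

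The other determinants did not share that fall to the same degree. osk stood at 2989 and 2315 CPM in XXYcongo ovaries and 2536 and 2693 CPM in XXYohio ovaries, against 4901 and 2974 CPM in XX ovaries, where 1 XX library was far above the rest. nos stood at 899 and 1619 CPM in XXYcongo ovaries and 653 and 1229 CPM in XXYohio ovaries, against 1205 and 1366 CPM in XX ovaries. The nos libraries of XXYcongo and of XXYohio lay far apart, and their ranges overlapped. grk was 23.5 and 41.8 CPM in XXYcongo and 36.9 and 37.4 CPM in XXYohio, against 37.5 and 40.3 CPM in XX ovaries.

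**Figure D3:**
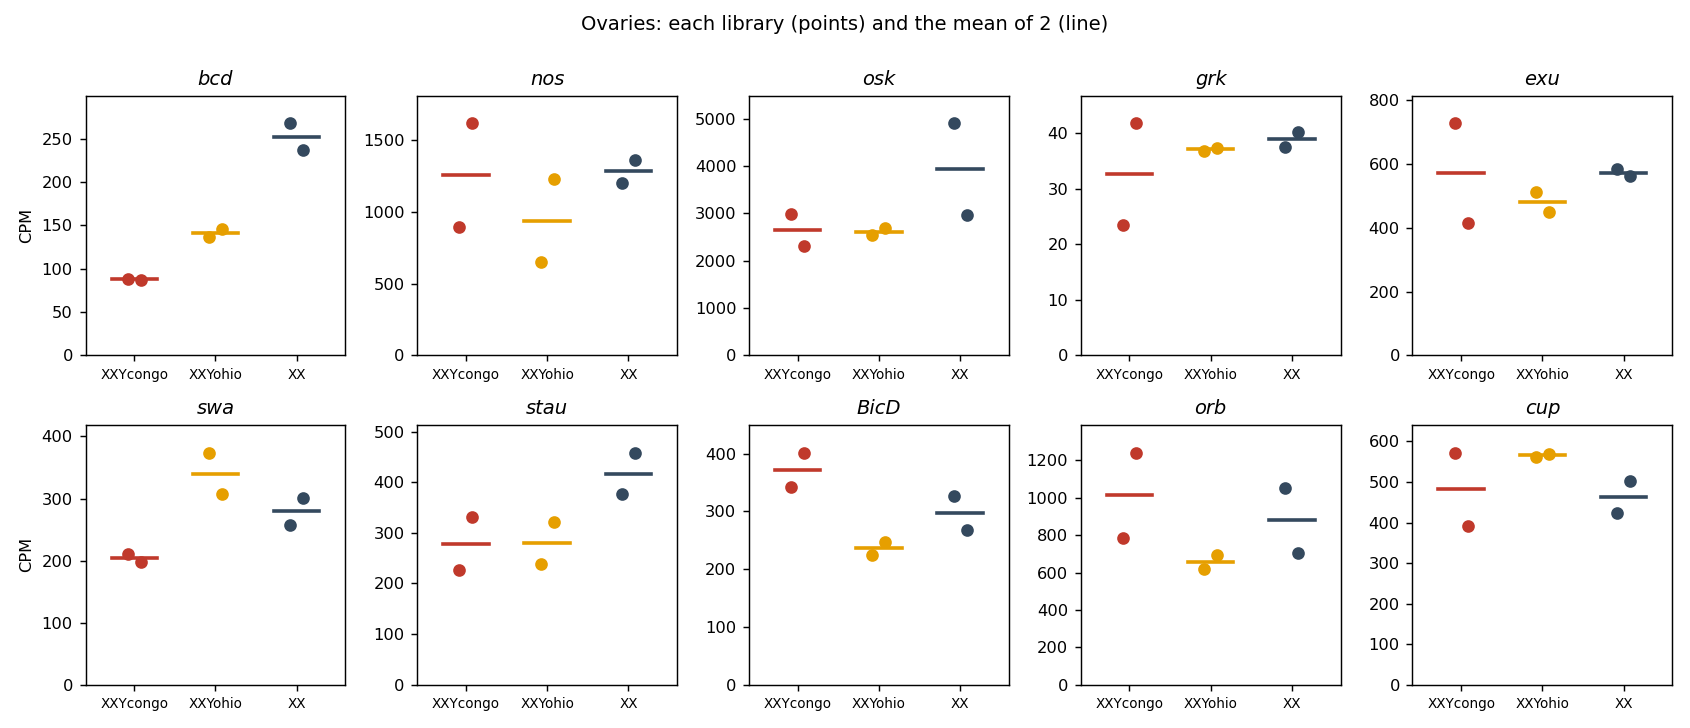
Level of each gene in ovaries, in CPM on linear axes from 0, for XXYcongo, XXYohio and XX from left to right; points are libraries and lines the mean of 2. bcd steps up from XXYcongo through XXYohio to XX without overlap, stau is highest in XX, and the pairs of nos, exu, grk and orb in XXYcongo lie far apart.

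Of the genes that act on bcd mRNA, stau stood at 226 and 331 CPM in XXYcongo ovaries and 239 and 321 CPM in XXYohio ovaries, against 376 and 458 CPM in XX ovaries, with both added-Y genotypes below XX. swa stood at 210 and 198 CPM in XXYcongo and 374 and 307 CPM in XXYohio, against 257 and 302 CPM in XX ovaries, so that it lay below XX with Ycongo and above it with Yohio. exu stood at 727 and 416 CPM in XXYcongo and 513 and 449 CPM in XXYohio, against 583 and 561 CPM in XX ovaries. BicD, at 342 and 402 CPM in XXYcongo ovaries against 327 and 268 CPM in XX ovaries, was the only gene of the 10 with both XXYcongo libraries above both XX libraries.

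Counted by overlap alone, 1 gene lay above and 3 (bcd, stau and swa) lay below XX in both XXYcongo ovary libraries, where 20.7% and 18.2% of all genes did so. In XXYohio ovaries 2 genes (swa and cup) lay above and 7 below, beside 26.6% and 22.2% of all genes. Of all genes, edgeR called 0.283% with Ycongo and 0.0113% with Yohio. Since the choice of the genes rests on these libraries, no call of the 10 genes is given here and nothing is read from the counts. The median log2 fold change of the 10 was −0.16 with Ycongo and −0.40 with Yohio, beside 0.06 and 0.03 for all 8829 genes tested.

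hunchback (hb) and caudal (cad), maternal mRNAs of which Nanos represses the translation of hb and Bicoid that of cad, both lay below XX in all added-Y ovary libraries. Of all genes, 18.2% lay below XX in both libraries with Ycongo and 22.2% with Yohio. hb stood at 67.9 and 66.2 CPM in XXYcongo ovaries and 98.0 and 82.2 CPM in XXYohio ovaries, against 113 and 113 CPM in XX ovaries, an order of genotypes like that of bcd. cad stood at 109 and 155 CPM in XXYcongo and 171 and 172 CPM in XXYohio, against 174 and 173 CPM in XX ovaries. With Yohio it thus lay only just below XX. Their log2 fold changes with Ycongo were −0.77 ± 0.26 for hb and −0.41 ± 0.28 for cad.

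In female bodies, which contain the ovaries, bcd lay on the other side of its control, a contrast between the tissues that was not tested. It stood at 159 and 291 CPM in XXYcongo bodies and 436 and 83.1 CPM in XXYohio bodies, against 77.0 and 45.4 CPM in XX bodies. Both added-Y genotypes were above XX, but the lower XXYohio library was close to the higher XX library. The log2 fold change was 2.01 ± 0.75 for XXYcongo (edgeR adjusted p = 0.906) and 2.28 ± 0.75 for XXYohio (adjusted p = 0.519), so that neither passed the test, and the authors' deposited table has 1.41 (adjusted p 0.228) and 1.28 (adjusted p 0.182). Without the first XXYohio library, the XXYohio value fell to 0.60. Without a filter on low counts, bcd was called in both comparisons, with an adjusted p of 0.0229 for XXYcongo and 0.00616 for XXYohio. Of 10459 genes tested, 23 had a higher log2 fold change than bcd in XXYohio bodies and 36 in XXYcongo bodies.

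The mitochondrial share was 25.4% and 33.5% in XXYcongo bodies and 33.3% and 5.21% in XXYohio bodies, against 25.2% and 9.26% in XX bodies. Within each of these pairs, the library with the higher mitochondrial share had the higher bcd level. With mitochondrially encoded genes left out, the log2 fold changes of bcd were 2.04 and 2.26. Muscle markers summed to 5011 and 3324 CPM in XXYcongo and 1792 and 3091 CPM in XXYohio, against 7638 and 10690 CPM in XX bodies, with 0 of 5 markers above 0 in log2 fold change in either comparison. The 4 gut markers summed to 816 and 732 CPM in XXYcongo and 638 and 893 CPM in XXYohio, against 1324 and 2484 CPM in XX bodies, again with 0 above 0. Female germline markers summed to 1635 and 1632 CPM in XXYcongo and 1632 and 1309 CPM in XXYohio, against 1537 and 1040 CPM in XX bodies, with all 5 markers above 0 in their log2 fold change in both comparisons. Eggshell markers summed to 3052 and 3008 CPM in XXYcongo and 2240 and 5670 CPM in XXYohio, against 2093 and 2190 CPM in XX bodies, with 10 of 11 markers above 0 in each comparison. None of these markers was at 0 in a female body group. Most female germline and eggshell markers thus lay above XX and the muscle and gut markers below it, and their part in the values of the 10 genes was not tested. The female germline set is not confined to gonads, since it summed to 341 to 446 CPM in the CNS.

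**Figure D4:**
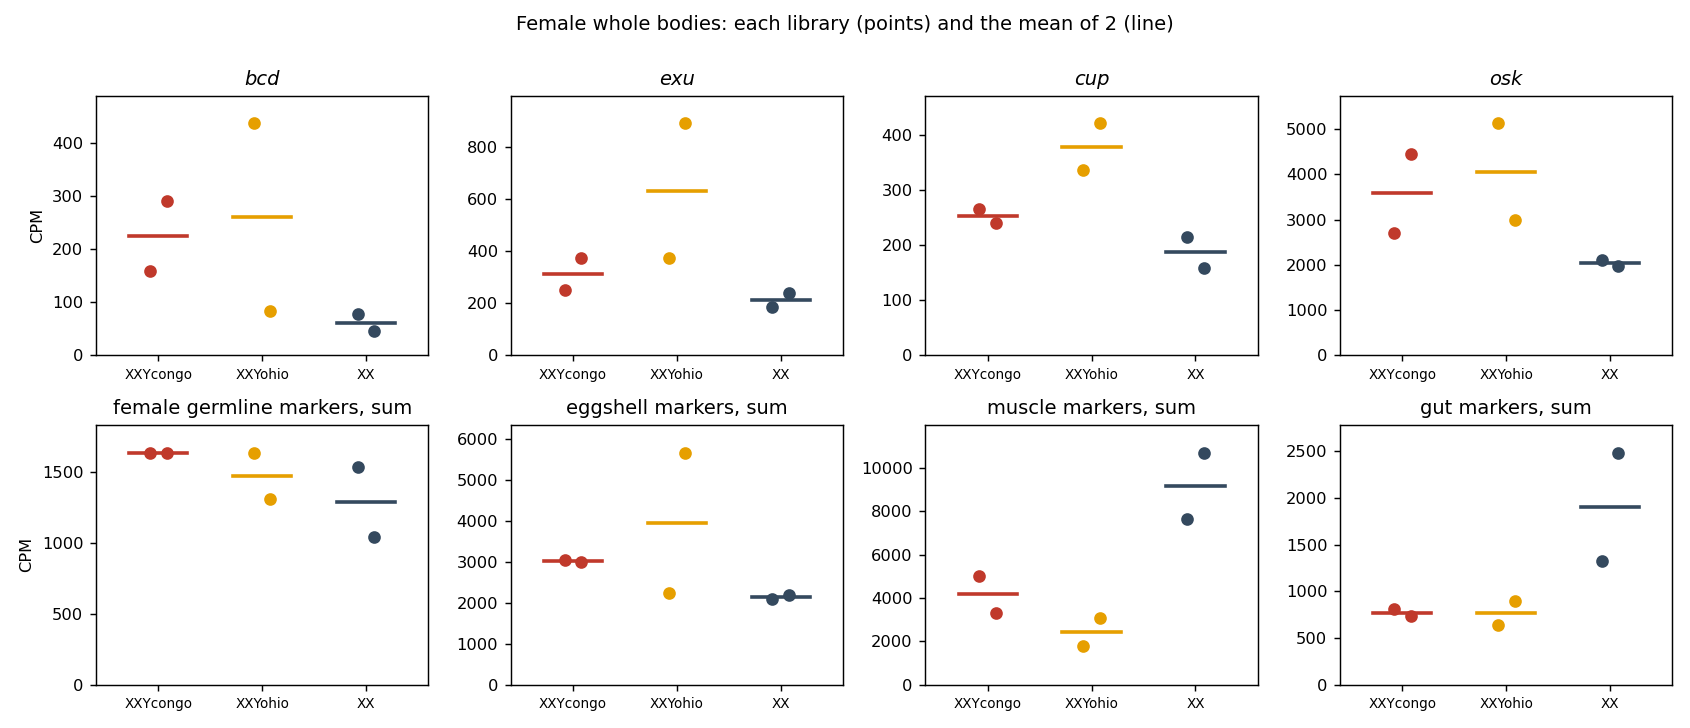
Female whole bodies: levels of bcd, exu, cup and osk (top) and summed levels of female germline, eggshell, muscle and gut markers (bottom), in CPM on linear axes from 0, for XXYcongo, XXYohio and XX from left to right; points are libraries and lines the mean of 2. All 4 genes lie above XX in both added-Y genotypes, with wide pairs in XXYohio for bcd and exu, while muscle and gut markers lie below XX.

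osk, exu and cup leaned the same way as bcd in female bodies. osk stood at 2710 and 4440 CPM in XXYcongo and 5122 and 2988 CPM in XXYohio, against 2117 and 1965 CPM in XX bodies (log2 0.95 ± 0.58 and 1.19 ± 0.58, adjusted p = 0.906 and 0.535). exu stood at 252 and 376 CPM in XXYcongo and 375 and 891 CPM in XXYohio, against 185 and 240 CPM in XX bodies (0.71 ± 0.51 and 1.77 ± 0.52, adjusted p = 0.906 and 0.519). cup stood at 266 and 239 CPM in XXYcongo and 336 and 420 CPM in XXYohio, against 215 and 159 CPM in XX bodies (0.57 ± 0.40 and 1.20 ± 0.41, adjusted p = 0.906 and 0.519). No library of these 3 genes overlapped its control, and none of the differences passed the test.

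Of the remaining genes, stau stood at 381 and 387 CPM in XXYcongo bodies, against 331 and 210 CPM in XX bodies, and orb at 725 and 840 CPM in XXYcongo bodies, against 666 and 544 CPM in XX bodies. Both lay above XX without overlap and did not pass the test (log2 0.64 ± 0.52 and 0.51 ± 0.44, adjusted p = 0.907 each). swa ranged from 90.0 to 124 CPM over the 4 added-Y bodies, against 90.4 and 92.5 CPM in XX bodies. grk was the 1 gene with log2 fold changes below 0 in both comparisons (−0.06 ± 0.43 and −0.56 ± 0.44). nos ranged from 690 to 1869 CPM in added-Y bodies, against 1398 and 373 CPM in XX bodies, where the XX pair lay far apart (log2 0.88 ± 0.70 with Ycongo and 0.30 ± 0.70 with Yohio).

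In female bodies edgeR called 0 of the 10 genes with either added Y, and also 0.0% of all 10459 genes tested in each comparison. DESeq2 called none of the 10 either, and at an unadjusted p below 0.05 edgeR had 1 gene (bcd) with Ycongo and 3 (bcd, cup and exu) with Yohio, beside 447 and 978 of all 10459. Libraries did not overlap for 6 genes above and 0 below XX with Ycongo, beside 11.5% and 25.9% of all genes, and for 5 above and 1 below with Yohio, beside 12.3% and 28.1%. The 2 comparisons share the XX bodies. The median log2 fold change of the 10 genes was 0.60 with Ycongo and 0.47 with Yohio, beside −0.02 and −0.01 for all genes tested.

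In the CNS 6 of the 10 genes had enough counts for a test. stau, the most abundant, stood at 253 and 233 CPM in XXYcongo and 219 and 259 CPM in XXYohio, against 264 and 258 CPM in XX, with log2 fold changes of −0.09 ± 0.15 and −0.12 ± 0.15. exu, on 8 to 52 counts per library, stood at 0.759 and 1.94 CPM in XXYcongo and 3.77 and 1.87 CPM in XXYohio, against 5.05 and 2.81 CPM in XX (−1.52 ± 0.66 and −0.47 ± 0.63, adjusted p = 0.855 and 0.932). orb stood at 16.0 and 17.1 CPM in XXYcongo and 16.2 and 26.9 CPM in XXYohio, against 26.1 and 26.8 CPM in XX (−0.66 ± 0.26 and −0.29 ± 0.25, adjusted p = 0.855 and 0.892). grk stood at 16.2 and 16.0 CPM in XXYcongo and 12.5 and 15.3 CPM in XXYohio, against 24.5 and 22.1 CPM in XX (−0.52 ± 0.21 and −0.73 ± 0.21, adjusted p = 0.855 and 0.781). Both added-Y genotypes lay below XX for grk without overlap, and in neither did it pass the test.

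edgeR called none of the 6 genes in the CNS, where it called 0.0101% of all genes with Ycongo and 0.0403% with Yohio, and DESeq2 called none of the 6. Unadjusted p-values below 0.05 were given to grk and orb with Ycongo and to grk with Yohio, beside 513 and 584 of all 9936 genes. Of the 6 genes, 0 lay above and 5 below XX in both XXYcongo libraries, beside 17.1% and 21.8% of all genes, and 0 above and 1 (grk) below in XXYohio, beside 17.3% and 18.5%. The other 4 genes, bcd, nos, osk and swa, had too few counts there.

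In male tissues no gene passed the test. In testes, exu stood at 4172 and 3982 CPM in XYYcongo and 3835 and 4006 CPM in XYYohio, against 3983 and 4814 CPM in XY, and the pairs overlapped in both comparisons (log2 −0.14 ± 0.19 and −0.19 ± 0.19, adjusted p = 1.0 and 0.974). orb stood at 1202 and 1161 CPM in XYYcongo testes and 786 and 888 CPM in XYYohio testes, against 972 and 1066 CPM in XY testes, above XY with Ycongo and below it with Yohio (0.18 ± 0.18 and −0.31 ± 0.18, adjusted p = 1.0 and 0.974). bcd stood at 2.45 and 1.87 CPM in XYYcongo testes, against 1.85 and 0.551 CPM in XY testes, from 5 to 25 counts per library. In male bodies, the largest differences among the 8 genes tested were those of osk, at 0.632 and 0.945 CPM in XYYcongo and 0.541 and 1.10 CPM in XYYohio, against 1.41 and 1.32 CPM in XY, on 4 to 12 counts per library (−0.68 ± 0.76 and −0.66 ± 0.76, adjusted p = 0.797 and 1.0).

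edgeR called 0 of 8 genes in male bodies and 0 of 10 in testes with either added Y, and 0.0% of all genes in each of these 4 comparisons. DESeq2 called none of the 10 genes, and none had an unadjusted p below 0.05 in edgeR, which gave one to 953 and 60 of all 12889 genes in XYYcongo and XYYohio bodies and to 291 and 370 of all 12743 in XYYcongo and XYYohio testes. In testes 2 genes lay above and 2 below XY with Ycongo, beside 14.0% and 9.57% of all genes, and 0 above and 1 below with Yohio, beside 20.4% and 14.4%. In male bodies the count was 0 above and 1 below for each added Y, beside 12.6% and 23.9% of all genes with Ycongo and 7.41% and 11.9% with Yohio.

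**Figure D5:**
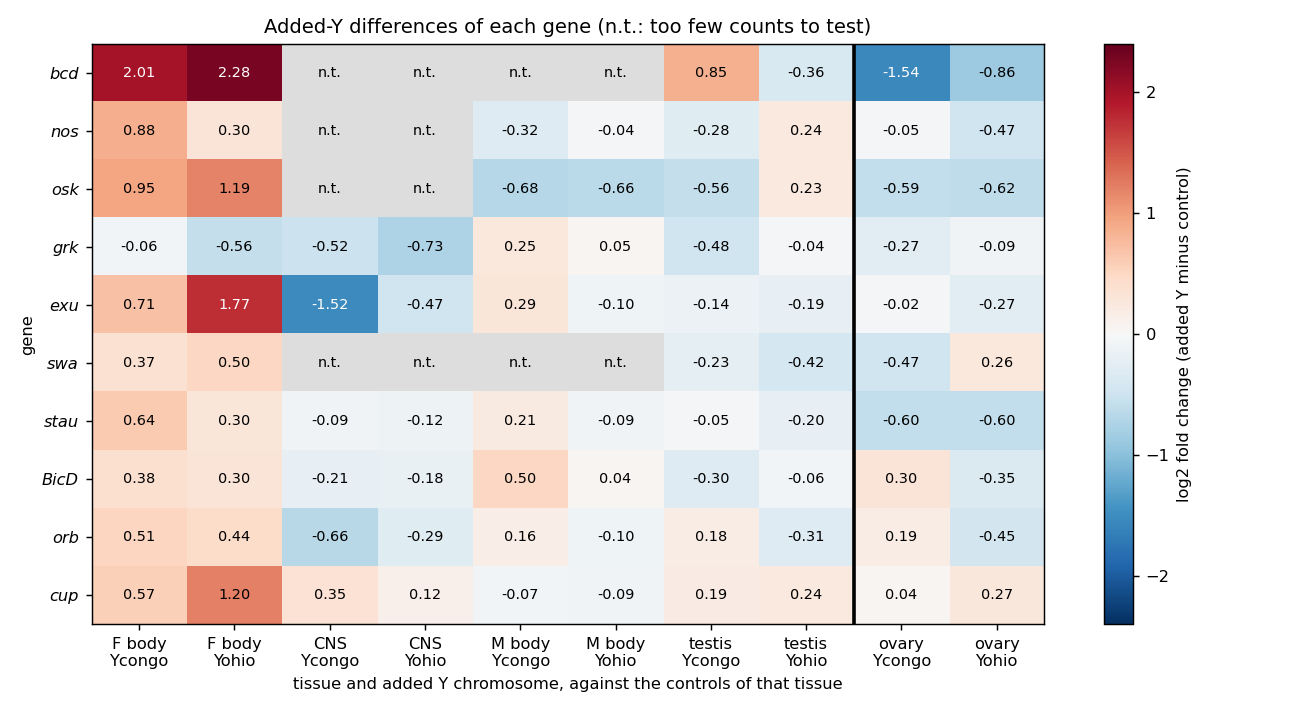
Log2 fold change of each gene (rows) for each added Y against the controls of the same tissue (columns), with colour from blue (lower with the added Y) to red (higher) and the value printed in each cell; n.t. marks genes with too few counts for a test, and the black line sets off the ovary, whose values chose the genes. bcd is red in female bodies and blue in ovaries, and no cell left of the line passed the test.

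Whether an added Y changed the genes differently between tissues was tested directly for 3 pairs of tissues that leave out the ovary. The difference of the added-Y effect between female and male bodies was 2.31 ± 1.29 for bcd with Ycongo (adjusted p = 0.724) and 2.50 ± 1.29 with Yohio (adjusted p = 0.729), and 0.41 ± 0.59 and 1.81 ± 0.60 for exu (adjusted p = 0.923 and 0.645). Between the CNS and female bodies it was −2.23 ± 0.66 for exu with Ycongo (adjusted p = 0.837) and −2.17 ± 0.63 with Yohio (adjusted p = 0.244). None of the 10 genes passed the test in any of the 6 comparisons of this kind, in which edgeR called 0.00695% of all genes in the CNS minus female body comparison with Yohio and 0.0% in the other 5. The fit of all libraries kept bcd, nos, osk and swa through their counts in other tissues. All of these had too few counts for a test within the CNS, and bcd and swa also within male bodies. No difference of the added-Y effect can be read for them there. osk had 4 and 0 counts in the XX CNS and 0 in both XXYcongo CNS libraries. DESeq2 called none of the 10, and the number with an unadjusted p below 0.05 in edgeR was 3 (exu, osk and orb) for the CNS minus female bodies with Ycongo, 2 (cup and exu) with Yohio, 2 (cup and exu) for female minus male bodies with Yohio and 0 in the other 3. Of all 14384 genes, 737, 1290 and 996 had one in those 3 comparisons, and 211 to 1067 in the other 3.

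Other genes of the same pathways were followed through 8 lists with 82 measured entries. Of 81 tested between ovaries and testes, 56 were called higher in ovaries and 15 lower, beside 29.6% and 49.5% of all genes. All 7 genes of the terminal group, which patterns both ends of the embryo, were higher, among them fs(1)M3 (log2 fold change 8.95 ± 0.47, adjusted p = 2.31e-13) and the receptor tyrosine kinase gene tor (3.82 ± 0.31, adjusted p = 1.79e-10). Of the posterior group and pole plasm genes, 8 of 10 were higher, with the pole cell transcription repressor pgc at 8.30 ± 0.42 (adjusted p = 1.24e-13), and 1 was lower, the actin nucleator capu (−4.35 ± 0.17, adjusted p = 4.62e-15). Of the dorsal-ventral and Gurken pathway genes, 14 of 17 were higher, including the receptor gene Tl (5.20 ± 0.24, adjusted p = 2.83e-14) and the protease genes ea (5.18 ± 0.61, adjusted p = 8.3e-08) and ndl (5.10 ± 0.37, adjusted p = 3.42e-11).

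Factors that move RNA were mostly higher in ovaries than in testes too. Of the motors and adaptors, 8 of 9 were higher than in testes, led by egl, the RNA-binding partner of BicD, at 2.69 ± 0.14 (adjusted p = 1.24e-13), with Khc, the kinesin heavy chain, at 1.52 ± 0.21 (adjusted p = 1.22e-06). Of the osk mRNP and exon junction genes 8 of 11 were higher, such as me31B (3.46 ± 0.32, adjusted p = 1.95e-09) and mago (3.01 ± 0.17, adjusted p = 5.71e-13), and heph was lower (−2.88 ± 0.27, adjusted p = 2.39e-09). Of the genes of translational control at egg activation 7 of 12 were higher, including all 3 parts of the PNG kinase, gnu (8.06 ± 0.49, adjusted p = 3.77e-12), png (7.12 ± 0.44, adjusted p = 5.99e-12) and plu (4.85 ± 0.48, adjusted p = 5.99e-09), and 2 were lower. The ESCRT-II and tubulin factors of bcd mRNA localization split, with 2 higher, among them the maternal gamma-tubulin gene gammaTub37C (6.19 ± 0.37, adjusted p = 1.55e-12), and 3 lower, among them the ESCRT-II gene Vps25 (−1.19 ± 0.28, adjusted p = 0.000563). Of 9 tested target genes of the gradients 2 were higher, hb among them (5.69 ± 0.37, adjusted p = 5.61e-12), and 5 were lower. The medians of these lists ran from −3.38 for the targets to 2.81 for the terminal group, beside −0.83 for all genes. Against the CNS, 4 of 9 motors and adaptors were called higher in ovaries and 4 lower. Of the 11 osk mRNP and exon junction genes, 3 were higher and 4 lower there, beside 27.9% and 29.0% of all genes. Female minus male bodies gave 0 higher and 3 lower for the first list and 6 and 1 for the second, beside 13.6% and 61.8%.

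With an added Y outside the ovary, edgeR called 0 of the tested list entries in each of 8 comparisons. Entries with an unadjusted p below 0.05 numbered 1 of 77 in XXYcongo bodies, 2 of 77 in XXYohio bodies, 3 and 2 of 68 in the XXYcongo and XXYohio CNS, 1 and 0 of 71 in XYYcongo and XYYohio bodies, and 2 and 3 of 74 in XYYcongo and XYYohio testes. The counts over all genes, in the same order, were 447 and 978 of 10459, 513 and 584 of 9936, 953 and 60 of 12889, and 291 and 370 of 12743. DESeq2 called 1 entry, wbl in the XXYcongo CNS, and 0 in the other 7 comparisons. In XXYcongo ovaries, given without a test, 13 of 74 entries lay above and 15 below XX in both libraries, beside 20.7% and 18.2% of all genes, and in XXYohio ovaries 20 above and 21 below, beside 26.6% and 22.2%. Those with the largest log2 fold changes and no overlap with XX included, with Ycongo, the sulfotransferase gene pip (−1.18 ± 0.38), sqd, which acts on grk mRNA (−1.09 ± 0.37), bru1, a repressor of osk translation (−0.86 ± 0.36), and gammaTub37C (−0.77 ± 0.29), and on the other side Vps25 (0.93 ± 0.43). With Yohio they included the ESCRT-II genes Vps36 (1.13 ± 0.46) and Vps25 (0.83 ± 0.43), and on the lower side sqd (−0.83 ± 0.37) and bru1 (−0.76 ± 0.36). In female bodies, of 77 tested, 14 entries lay above and 6 below XX with Ycongo, beside 11.5% and 25.9% of all genes, and 15 above and 9 below with Yohio, beside 12.3% and 28.1%.

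Over the 15 groups, the gene outside the 10 most like bcd among 11697 genes with at least 10 CPM in some group was Aef1, with Pearson's r of 0.993 between log2(CPM + 1) group means, followed by dhd, a thioredoxin gene (0.990), CG44005 and gnu (0.988 each), and slam and lncRNA:CR43837 (0.987 each). The groups share tissues, so that these values mainly describe ovaries and female bodies against the rest. In ovaries, Aef1 averaged 235 CPM in XXYcongo and 233 CPM in XXYohio, against 294 CPM in XX, and CG44005 averaged 60.1 and 91.0 CPM, against 113 CPM. Among the 10 genes themselves, bcd was most like osk (r = 0.991), swa (0.981), BicD (0.944) and nos (0.928), and least like exu (0.218). orb and cup were alike at 0.982. Outside the 10, swa was most like wisp (0.998) and smg (0.996), osk most like CG4009 (0.997), nos most like CG18088 (0.996), stau most like pum (0.992), exu most like ATP7 and PAPLA1 (0.985 each), BicD most like RN-tre (0.985), orb most like CG43672 (0.984) and grk most like ens (0.966). cup was most like CG34310 (0.999), with which it shares its exons, and next CG7208 (0.988).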

How the data were processed

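Poly(A) RNA libraries were made from Trizol-extracted RNA with the PrepX RNA-Seq kit, per the labels' protocols. The submitters' processing notes name Trim Galore, Bowtie2, SAMtools, DESeq2 1.8.1 and R 3.2.3; the sources used here do not give the build, annotation or strandedness. The deposited tables hold whole-number counts per gene for 16868 genes. The authors' deposited table of each comparison gives log2 fold changes with adjusted p-values. In file names, "cs" was read as Yohio through the sample labels, and 5 tables that combine the same counts were not used.

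Genes were matched to Ensembl BDGP6.54 by identifier, with nos listed as nanos. Counts were tested with edgeR 4.0.16 in R 4.3.3 (filterByExpr with a minimum count of 10, TMM scaling, quasi-likelihood test, Benjamini-Hochberg adjustment over all genes tested). Each of the 10 added-Y comparisons was fitted on the 6 libraries of its tissue, with 3 residual degrees of freedom. The 5 tissue comparisons and 6 differences of the added-Y effect came from 1 fit of all 30 libraries, with 15. Standard errors are the log2 fold change over the square root of F, and are approximate. The smallest two-sided p of an exact permutation of 2 and 2 libraries is 0.333. Both added-Y comparisons of a tissue share control libraries. The scripts were tested on simulated data. Alternatives were RLE scaling, no scaling factors (added after seeing the data), no low-count filter, DESeq2 1.42.0, a replicate block, leaving out mitochondrially encoded genes, fewer libraries or genotypes, and leaving out each library.

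The 10 genes and the lists were chosen with earlier results of these data known. From the lists, genes are named where called, at most 4 per list and comparison by size of log2 fold change; in the ovary hb, cad and at most 4 genes per list whose libraries do not overlap are named. The genes most alike were searched by Pearson's r of log2(CPM + 1) group means. List entries vas and Imp were not matched and not analysed here.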

Additional observations from a re-analysis of the deposited data

Results flagged for a closer look

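Between the ovary and another female tissue, libraries of 6 gene and chromosome combinations lay wholly on opposite sides of the XX controls. The share of all genes that did so was not counted, and nothing is read from the number. In single comparisons, 11.5% to 28.1% of all genes lay wholly above or wholly below XX in female bodies and 18.2% to 26.6% in ovaries. In the XXYcongo CNS, 17.1% lay above and 21.8% below. The genes were chosen on bcd in XXYcongo and XX ovaries, so that the Ycongo combinations use that comparison and the Yohio ones share its XX ovaries, and the difference between the tissues was not tested. With Ycongo, bcd lay above XX in female bodies and below it in ovaries, and the log2 fold changes differed by 3.55. With Yohio the same difference was 3.14 for bcd, 2.04 for exu and 1.81 for osk. stau lay above XX in XXYcongo bodies and below it in XXYcongo ovaries, with a difference of 1.24. BicD lay below XX in the XXYcongo CNS and above it in XXYcongo ovaries, with a difference of −0.51.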

How the results depend on the processing

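The count of the 10 genes called changed by more than 1.5 times as follows. Without a low-count filter 1 gene (bcd) was called in XXYohio bodies, XXYcongo bodies and XXYcongo ovaries, against 0, and bcd was also the 1 gene called in XXYcongo ovaries by DESeq2 and with the replicate block; the ovary libraries chose the genes, so that those ovary calls are no evidence. Ovaries minus testes gave 10 (7 higher and 3 lower) with RLE scaling and with DESeq2, against 8 (7 and 1), a smaller change. In ovaries minus female bodies the count was 2 with RLE scaling, DESeq2, Yohio groups only, Ycongo groups only or 12 libraries, and 3 without a filter or without mitochondrially encoded genes, against 5. Female minus male bodies gave 5 with controls only, against 9. Leaving out 1 library at a time gave 0 to 1 for XXYcongo ovaries, 3 to 6 for ovaries minus female bodies, 8 to 9 for ovaries minus testes, 9 to 10 for ovaries minus CNS, 7 to 9 for female minus male bodies, 6 to 8 for testes minus male bodies and 0 to 0 elsewhere. The sign turned for grk in female minus male bodies (0.0384 with no scaling factors, 0.19 without a filter, 0.31 without mitochondrially encoded genes and 0.27 with 12 libraries, against −0.63), exu in ovaries minus female bodies (−0.18 with Yohio groups only, against 0.91), cup in ovaries minus testes (−0.41 with RLE scaling and with DESeq2, against 0.05) and BicD in testes minus male bodies (0.46 without mitochondrially encoded genes, against −0.43). The cause of these changes was not tested.

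Counts over all genes moved by more than 1.5 times as follows. Without a low-count filter they were 58 in XXYohio and 48 in XXYcongo bodies (against 0 each), 96 and 266 in XXYohio and XXYcongo ovaries (against 1 and 25), 264 and 90 in the XXYohio and XXYcongo CNS (against 4 and 1), and 1 and 2 in XYYohio and XYYcongo testes (against 0 each). DESeq2 gave 13 and 6 in XXYohio and XXYcongo bodies, 23 and 183 in ovaries, 44 and 41 in the CNS, 12 in XYYcongo bodies and 4 and 6 in XYYohio and XYYcongo testes. For the differences of the Yohio and Ycongo effects it gave 19 and 15 (female minus male body), 117 and 9 (CNS minus female body) and 1 and 13 (testis minus male body), against 0 except 1 for Yohio in CNS minus female body, which was 0 with no scaling factors. With the 4 libraries compared alone the counts were 45 and 6 in XXYohio and XXYcongo ovaries and 1 and 18 in the XXYohio and XXYcongo CNS. Leaving out mitochondrially encoded genes gave 3 in XXYcongo ovaries and 2 in the XXYcongo CNS, which also had 2 with no scaling factors. Ovaries minus female bodies had 4947 with Yohio groups only and 5114 with Ycongo groups only, against 7997; with controls only, female minus male bodies had 6901, against 10855, and testes minus male bodies 7190, against 10813. Leaving out 1 library gave 0 to 46 in XXYohio and 2 to 496 in XXYcongo ovaries, 0 to 110 and 0 to 25 in the XXYohio and XXYcongo CNS, 0 to 1 in XYYcongo bodies and 0 to 4 in XYYcongo testes.

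The split into higher and lower calls was 4198 and 3799 in ovaries minus female bodies, but 2344 and 4444 with RLE scaling, 2562 and 4613 with DESeq2, 2813 and 4267 without a filter and 1526 and 3950 with 12 libraries. In female minus male bodies it was 1959 and 8896, but 3465 and 6420 with no scaling factors, 3968 and 6007 without a filter, 4373 and 5623 without mitochondrially encoded genes and 3730 and 5232 with 12 libraries. In testes minus male bodies it was 5279 and 5534, but 6765 and 4484 without a filter and 7743 and 3617 without mitochondrially encoded genes.

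Whether libraries with the same replicate number share a batch is not stated and was not tested. Their deviations went together in some groups only. In female bodies r was 0.433 for XXYohio with XX, 0.366 for XXYcongo with XX and −0.094 between the added-Y genotypes. In male bodies the matching values were 0.469, −0.257 and −0.312. Elsewhere r ran from −0.359 (testes, XYYcongo with XY) to 0.13 (ovaries, XXYcongo with XX). With the replicate number as a block, the count over all genes was 80 in XXYcongo ovaries, 2 in XXYohio ovaries, 5 in the XXYcongo CNS and 6 in the XXYohio CNS.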
